A study of Mus musculus with 19 samples.

Results

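The genes described here are 29 muscle genes known for altered splicing in myotonic dystrophy, picked by name from a list, and read on Affymetrix arrays through every probe set that carried 1 gene symbol. A probe set is a group of short probes against 1 stretch of a transcript. The array held 99 such probe sets for these genes, and 77 of them, from 27 genes, had a mean log2(signal + 16) over all 19 samples at or above the array-wide median of 6.09. They stood among 22519 tested probe sets from 11533 genes. Of the 2 genes without a tested probe set, Trim55 matched none with 1 symbol, and Tmed2 had only a dim one (mean log2 signal 4.81) besides 6 that carry a second symbol. Nearest to the limit were a probe set of Ppp2r5c inside it (6.21) and one of Rapgef1 outside it (5.84).

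The samples were extensor digitorum longus (EDL) muscle, a fast-twitch muscle at the front of the shin, from FVB mice aged 19 weeks. There were 10 samples of transgenic HSALR line 20 b, whose transgene is the human skeletal actin gene with an expanded CTG repeat, and 9 wild-type samples of the same strain. The transgene is driven by skeletal actin sequences, so the repeat RNA is made in muscle fibres, and HSALR here is a single line. Whether each sample was a separate animal is not in the labels. The p-values thus set a group difference against the spread among these samples only. That spread may in part be technical and need not be the spread between animals. The precision is limited by the number of arrays.

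In myotonic dystrophy, RNA with expanded CUG repeats collects in the nucleus and binds MBNL proteins, while CELF1 becomes more active. Exons that these proteins control then return to a fetal pattern in many muscle transcripts, among them those of Ldb3, Bin1, Nfix and Capzb. Altered splicing changes which exons a transcript holds and need not change how much of it there is. A probe set sums all transcripts that hold its target stretch. A like change at every probe set of a gene reads as a change of level, and unequal changes at its probe sets are a difference in what the probe sets read, which is not in itself a measure of an exon. The positions of the probe sets in the transcripts are not used here.

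Sequence before the start of transcription is shown for Vldlr, which had probe sets called lower, and for Ppp2r5c, called for unequal folds between its probe sets. Both are from RefSeq (GRCm38.p6), on the plus strand, and cover the 250 bases before an annotated start. Each gene has 2 annotated starts, 536 bases apart in Vldlr and 38275 in Ppp2r5c. For Vldlr the window is chr19:27216234-27216483, before the upstream start. For Ppp2r5c it is chr12:110485547-110485796, before the downstream start. Capitals mark a match on either strand to CAGCTG, an E-box form that myogenic factors bind, to GGGCGG, the GC box, or to TATAAA, the TATA box.
Vldlr: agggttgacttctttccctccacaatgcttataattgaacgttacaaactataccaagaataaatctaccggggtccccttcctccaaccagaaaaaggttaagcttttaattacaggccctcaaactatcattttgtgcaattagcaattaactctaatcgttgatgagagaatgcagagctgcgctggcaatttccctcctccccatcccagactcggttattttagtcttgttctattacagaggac
Ppp2r5c: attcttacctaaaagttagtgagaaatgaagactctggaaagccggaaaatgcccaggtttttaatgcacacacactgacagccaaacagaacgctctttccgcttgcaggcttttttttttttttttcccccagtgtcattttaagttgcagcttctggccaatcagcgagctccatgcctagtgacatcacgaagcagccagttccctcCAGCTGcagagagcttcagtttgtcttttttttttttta
The printed Vldlr window held none of the 3 motifs, and the printed Ppp2r5c window held 1 match, CAGCTG. Before the other start, which is not printed, Vldlr had 1 match to CAGCTG and 1 to GGGCGG, and Ppp2r5c had 5 to GGGCGG. Over all 32851 windows of this length, 13.0% held CAGCTG, 32.7% held GGGCGG and 12.4% held TATAAA. RefSeq promoter entries were found for 21 of the 29 genes, and a match or its absence is a description of these letters only.

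The labelled tissue was checked on 12 skeletal muscle markers, all with a tested probe set, whose summed signal was 156235 to 185212 in HSALR samples and 165284 to 189889 in wild-type samples. HSALR replicates 9 and 10 stood apart from the other samples. They correlated with each other at 0.978 (Spearman), while the highest correlation of each other sample was 0.953 to 0.969. Whether they are independent of each other was not tested, and they count as separate samples in the tests. Their summed signal of 15 macrophage markers was 28033 and 31802, against at most 13809 in the other 8 HSALR samples and 5790 to 9656 in wild type. Over the 10 fibroblast markers with a probe set it was 84514 and 87112, against at most 43328 in the other 8 HSALR samples and 20902 to 41988 in wild type. Of the tested macrophage probe sets 2 of 17 rose as deposited (limma), of the fibroblast ones 2 of 16, of those for fat cells 2 of 6 and for satellite cells and regenerating fibres 3 of 11. The background over all tested probe sets was 2.86% higher. Of the endothelial probe sets 0 of 12 were called and of those for nerve and Schwann cells 0 of 11. Of the 19 for skeletal muscle 1 rose and 1 fell. The summed nerve and Schwann signal was 7211 and 4669 in HSALR replicates 9 and 10. It was at most 3754 in the other 8 HSALR samples and 2479 to 4764 in wild type. The 17 macrophage probe sets had log2 folds of 0.16 to 1.27, and 6 of them rose after quantile normalization. The part of these cells in the results was not tested. Values without replicates 9 and 10 are given where they change a limma or diffSplice call of a member gene. For the splicing regulators and for single genes of the other lists they are not given.

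Most of these genes were measured at like levels in HSALR and wild-type muscle. The groups were compared with limma on log2(signal + 16), a scale that understates the fold of dim probe sets, with p-values adjusted by the Benjamini-Hochberg method over all 22519 probe sets. At an adjusted p under 0.05, 3 of the 77 member probe sets fell and 0 rose. This is 3.9%, against a background of 5.06% called among all tested probe sets, 2.2% lower and 2.86% higher. All 3 belonged to Vldlr. At an unadjusted p under 0.05 there were 3 higher (3.9%) and 8 lower (10.4%), against a background of 12.9% higher and 7.72% lower. In 65 of the 77 the log2 fold lay within 0.25 of 0, and their median log2 fold was -0.03, beside 0.04 over all tested probe sets. In 0 of the 77 did the 2 groups fail to overlap, against a background of 0.289% of all probe sets with every HSALR sample below every wild-type sample and 0.36% with every one above.

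**Figure D1:**
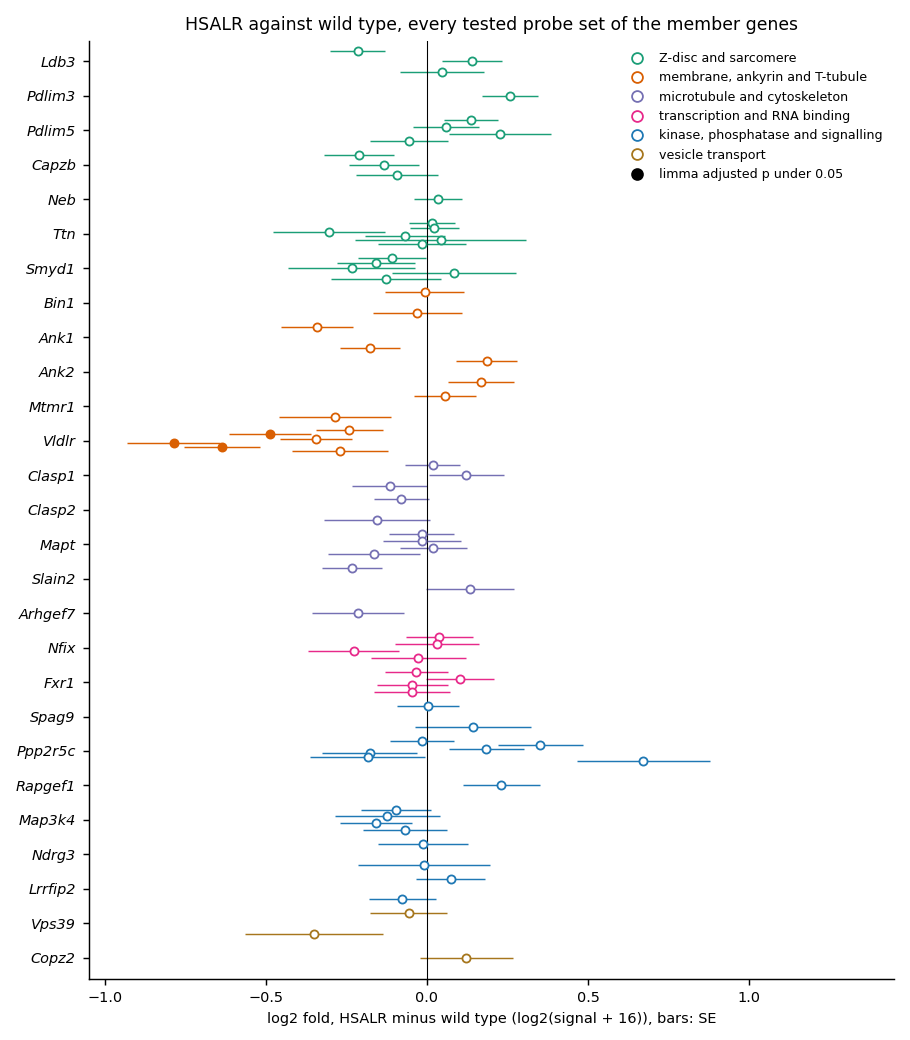
Log2 fold of HSALR minus wild type on the log2(signal + 16) scale (x axis) for each of the 77 tested probe sets, grouped by gene (y axis) and coloured by role. Points are folds, bars are standard errors, and filled points have a limma adjusted p under 0.05. The 3 filled points are probe sets of Vldlr, at -0.79, -0.64 and -0.49, and the 6 probe sets of Ppp2r5c spread from -0.18 to 0.67.

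How many passed depended on the scaling of the arrays in the same way for members and for all probe sets. After quantile normalization 12 member probe sets from 7 genes passed, 2 higher and 10 lower, which is 15.6% against a background of 14.8%, 6.47% higher and 8.37% lower. With each array centred on its median 7 passed, 2 higher and 5 lower, against a background of 10.4%. The share of members called thus lay near that of all probe sets in each scaling. Quantile normalization moved the median log2 fold of all probe sets by -0.05.

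**Figure D2:**
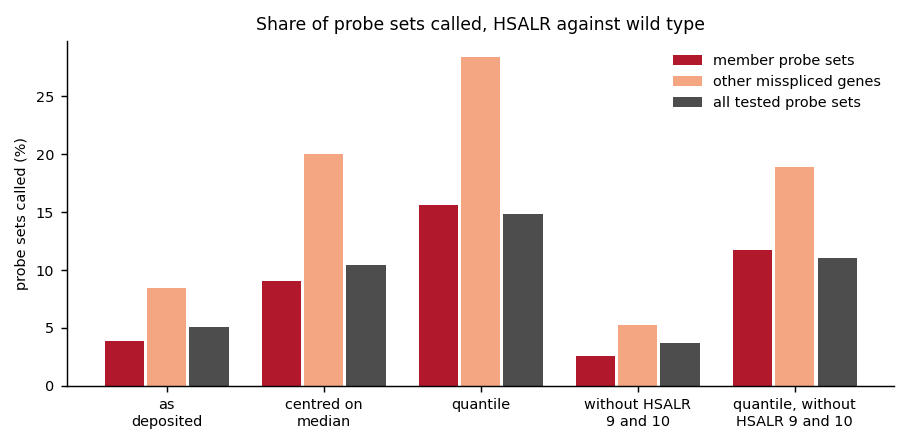
Share of probe sets called by limma (y axis, percent) for HSALR against wild type in 5 settings (x axis), for the member genes, for other genes known to be misspliced in myotonic dystrophy and for all tested probe sets. The members stand at 3.9%, 9.09%, 15.6%, 2.6% and 11.7%, beside 5.06%, 10.4%, 14.8%, 3.68% and 11% of all probe sets.

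Vldlr, on chromosome 19, encodes the very low density lipoprotein receptor, which takes up triglyceride-rich lipoproteins in muscle, heart and fat and is also a receptor for reelin. Its mean was lower in HSALR muscle at all 6 tested probe sets. At 1438258_at the signal had a lowest, median and highest value of 512, 745 and 1054 in HSALR samples, against 985, 1470 and 1730 in wild-type samples. All 10 HSALR samples lay below the wild-type median and 7 lay below every wild-type sample, so the groups overlapped only at their edges. The log2 fold was -0.79 ± 0.14 (SE, n = 10 against 9, limma adjusted p = 0.00152), a level 42.0% lower in HSALR muscle.

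At 1442169_at the Vldlr signal was 388, 523 and 640 (lowest, median and highest) in HSALR samples, against 585, 785 and 1190 in wild type. Here 8 of 10 HSALR samples lay below every wild-type sample. The log2 fold was -0.64 ± 0.12 (SE, limma adjusted p = 0.00171). At 1435893_at the signal was 1161, 1604 and 2274 in HSALR samples, against 1808, 2262 and 3045 in wild type. The groups overlapped more here, with 7 of 10 HSALR samples below every wild-type sample and a log2 fold of -0.49 ± 0.13 (SE, limma adjusted p = 0.0249).

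The other 3 probe sets of Vldlr did not pass as deposited. 1417900_a_at had signals of 821, 991 and 1400 in HSALR samples, against 995, 1276 and 1603 in wild type, and a log2 fold of -0.34 ± 0.11 (limma adjusted p = 0.0744). 1434465_x_at, the brightest, had 2300, 2736 and 3369 in HSALR samples, against 2696, 3122 and 4104 in wild type, and a log2 fold of -0.24 ± 0.10 (limma adjusted p = 0.19). In its name, as background, the letter x marks a probe set some of whose probes also match other sequences. 1451156_s_at, the dimmest, had 109, 166 and 208 in HSALR samples, against 124, 187 and 355 in wild type, and a log2 fold of -0.27 ± 0.15 (limma adjusted p = 0.309). After quantile normalization all of the 6 except 1451156_s_at passed, with log2 folds of -0.84 to -0.32 among the 5. Of these 5, only 1434465_x_at no longer passed when the HSALR samples that stood apart were left out and the rest quantile-normalized.

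The call at 1438258_at and 1442169_at was kept in each alternative that was run, with log2 folds of -0.84 to -0.75 and -0.70 to -0.58 apart from the fits without 1 sample. That at 1435893_at was lost without HSALR replicates 9 and 10 (log2 fold -0.46, limma adjusted p = 0.0693), but it was kept when those arrays were left out and the rest quantile-normalized (0.00929). Without these 2 samples the log2 folds at 1438258_at and 1442169_at were -0.77 and -0.62 (limma adjusted p = 0.00491 and 0.00593). Endothelial cells also express the receptor. The 12 probe sets for 8 endothelial marker genes had log2 folds of -0.12 to 0.20 (smallest limma adjusted p = 0.463), and their summed signal was 3308 to 5472 in HSALR samples and 3114 to 5633 in wild type. In bulk muscle, fewer cells of a type and less RNA per cell cannot be told apart.

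**Figure D3:**
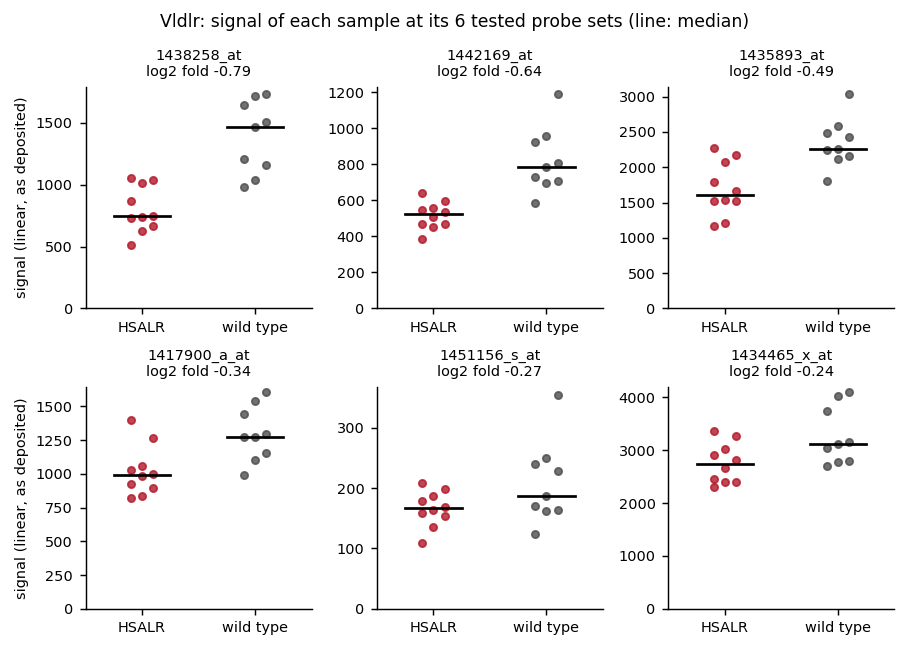
Signal of Vldlr as deposited (y axis, linear scale) in each of 10 HSALR and 9 wild-type samples at its 6 tested probe sets, ordered by log2 fold, with the median as a line. At 1438258_at the medians are 745 in HSALR and 1470 in wild type, and at 1434465_x_at they are 2736 and 3122.

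The fall of Vldlr was larger at some probe sets than at the brightest. Within each sample, 1438258_at minus the brightest probe set on the log2 scale had a lowest, median and highest value of -2.22, -1.79 and -1.46 in HSALR samples, against -1.54, -1.21 and -0.87 in wild type. A factor common to an array cancels in such a difference, apart from the pseudocount. In 8 of 10 HSALR samples it lay below every wild-type sample, and its mean was lower by 0.54 in HSALR muscle (exact permutation p = 0.00013, 2-sided, unadjusted; limma adjusted p = 0.00249 over the 7789 such pairs of all genes). The same difference for 1442169_at was lower by 0.40 (limma adjusted p = 0.00847). The joint test of all 6 probe sets for unequal folds, diffSplice of limma, did not call Vldlr (adjusted p = 0.237).

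Ldb3, on chromosome 14, encodes a Z-disc protein, also named ZASP or Cypher, that links actinin to signalling proteins and whose exon choice shifts in myotonic dystrophy. Its probe sets moved apart. At 1416752_at the signal had a lowest, median and highest value of 4642, 5853 and 7615 in HSALR samples, against 6417, 6924 and 7477 in wild type. Here 7 of 10 HSALR samples lay below every wild-type sample and 1 lay above all of them. This gave a log2 fold of -0.22 ± 0.09 (SE, limma adjusted p = 0.157), and after quantile normalization -0.33 (limma adjusted p = 0.0052).

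At 1433783_at the Ldb3 signal was 4896, 5525 and 7361 in HSALR samples, against 4315, 5239 and 5982 in wild type, with 4 HSALR samples above all wild-type ones. The log2 fold was 0.14 ± 0.09 (limma adjusted p = 0.421). Within each sample, 1433783_at minus 1416752_at was -0.23, -0.13 and 0.20 on the log2 scale in HSALR samples, against -0.68, -0.36 and -0.29 in wild type. Every HSALR sample was above every wild-type sample, 10 against 9. The difference between groups was 0.35 ± 0.08 (SE, exact permutation p = 1.08e-05, 2-sided, unadjusted, the smallest that the 92378 splits allow; limma adjusted p = 0.00821 over all pairs).

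Among the 7789 pairs of a probe set with the brightest of its gene, 9.37% were called by limma and 0.937% had groups that did not overlap. Of the 50 such pairs of member genes 4 were called, and the Ldb3 pair was the only 1 without overlap. Without HSALR replicates 9 and 10 its difference was 0.35 (exact permutation p = 4.11e-05). The third probe set of Ldb3, 1451999_at, had a log2 fold of 0.05 ± 0.13. Over the 3 probe sets together diffSplice did not call Ldb3 as deposited (adjusted p = 0.371), and it did without HSALR replicates 9 and 10 after quantile normalization (0.0307).

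**Figure D4:**
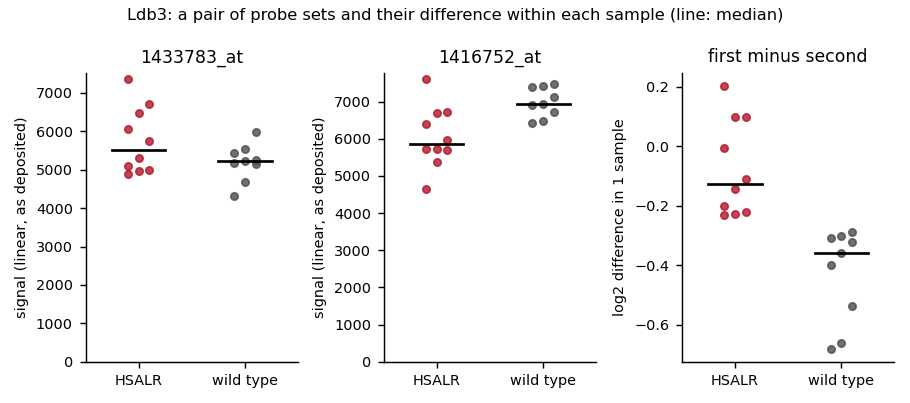
Signal of Ldb3 at 1433783_at and 1416752_at (left and middle, y axis linear) and the log2 difference of the first minus the second within each sample (right), for 10 HSALR and 9 wild-type samples, with the median as a line. The signals overlap between groups, and the differences do not, at -0.23 or above in HSALR and -0.29 or below in wild type.

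Ppp2r5c, on chromosome 12, encodes a regulatory subunit of protein phosphatase 2A that directs the enzyme to its substrates. It was the only 1 of 22 member genes with several tested probe sets that diffSplice called (adjusted p = 0.0479), which is 4.55% against a background of 1.88% of 4782 genes. After quantile normalization it was again the only 1 (adjusted p = 0.00128), against a background of 7.63%. At the brightest probe set, 1434205_at, the signal was 1264, 1673 and 2292 (lowest, median and highest) in HSALR samples, against 1482, 1649 and 1998 in wild type. The groups overlapped throughout, with a log2 fold of -0.01 ± 0.10.

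At 1455520_at, which lies just above the limit for testing, the Ppp2r5c signal was 30.3, 75.8 and 162 in HSALR samples, against 23.1, 48.0 and 65.5 in wild type. In 7 of 10 HSALR samples it lay above every wild-type sample. The log2 fold was 0.67 ± 0.21 (SE, limma adjusted p = 0.0617), the highest among the members, and 0.60 after quantile normalization (limma adjusted p = 0.0244). At 1425542_a_at the signal was 142, 224 and 334 in HSALR samples, against 140, 166 and 211 in wild type, with 6 HSALR samples above the wild-type maximum. Its log2 fold was 0.35 ± 0.13 (limma adjusted p = 0.127), and 0.29 after quantile normalization (limma adjusted p = 0.0241). Both of these calls after quantile normalization were lost when the HSALR samples that stood apart were left out and the rest quantile-normalized.

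The remaining probe sets of Ppp2r5c missed the threshold in both scalings. 1427003_at had signals of 149, 206 and 284 in HSALR samples, against 142, 175 and 208 in wild type. There 5 of 10 HSALR samples were above the wild-type maximum, and the log2 fold was 0.18 ± 0.12. 1425726_x_at and 1434206_s_at had log2 folds of -0.18 ± 0.15 and -0.18 ± 0.18. Within each sample, 1455520_at minus the brightest was higher by 0.69 in HSALR muscle, with 5 of 10 HSALR samples above the wild-type maximum (exact permutation p = 0.00967, unadjusted; limma adjusted p = 0.0481 over all pairs). Without HSALR replicates 9 and 10 it was higher by 0.52, and diffSplice then missed the threshold (adjusted p = 0.344), but not after quantile normalization (0.0348). That call was also lost in 14 of 19 fits without 1 sample, with adjusted p from 0.0109 to 0.163.

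**Figure D5:**
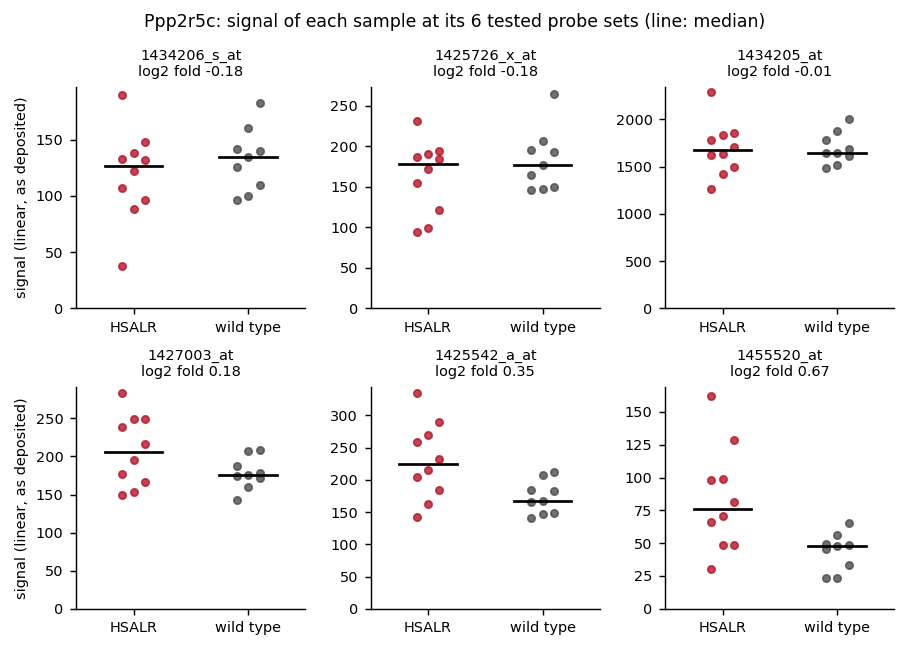
Signal of Ppp2r5c as deposited (y axis, linear scale) in each of 10 HSALR and 9 wild-type samples at its 6 tested probe sets, ordered by log2 fold, with the median as a line. The HSALR median is 75.8 against 48.0 in wild type at 1455520_at, and 1673 against 1649 at 1434205_at.

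Among the 8 genes of the Z-disc and sarcomere, 0 of 23 probe sets passed in limma as deposited (at an unadjusted p under 0.05, 1 was higher and 1 lower), and their median log2 fold was -0.02. Pdlim3, the actinin-associated LIM protein of the Z-disc, had 1 probe set, with signals of 5526, 6031 and 8358 in HSALR samples, against 4865, 5274 and 5747 in wild type. It was above the wild-type maximum in 9 of 10 HSALR samples. The log2 fold was 0.26 ± 0.09, short of the threshold (limma adjusted p = 0.0894), and was smaller after quantile normalization (0.16, limma adjusted p = 0.152). It passed with array weights (0.0215) and with trend and robust settings (0.0301).

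Pdlim5, a related Z-disc protein, had log2 folds of -0.06 to 0.23 at 4 probe sets, and 0.14 ± 0.08 at the brightest. Capzb, a subunit of the protein that caps actin filaments at the Z-disc, had signals of 1341, 1762 and 2297 at its brightest probe set, 1424168_a_at, in HSALR samples, against 1817, 2074 and 2507 in wild type. In 5 of 10 HSALR samples it lay below every wild-type sample. Its log2 fold was -0.21 ± 0.11 (limma adjusted p = 0.278), and it passed only after quantile normalization, with all samples (-0.27, limma adjusted p = 0.0187) and without HSALR replicates 9 and 10 (-0.29, limma adjusted p = 0.0204). The 3 probe sets of Capzb had log2 folds of -0.21 to -0.09, with no call for a difference between them (diffSplice adjusted p = 0.96).

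Neb, the ruler protein of the thin filament, had a log2 fold of 0.03 ± 0.07, with a 95% interval of -0.12 to 0.19. Ttn, the spring that spans from Z-disc to M-band, had 0.02 ± 0.07 at its brightest probe set and -0.30 to 0.04 over all 6. The signals of Neb (8092 to 10980 in HSALR samples) and of the brightest Ttn probe set (11751 to 15077) were close to the array maxima of 13979 to 17163, a range in which an array can understate a change. Smyd1, a methyltransferase needed for sarcomere assembly, had a log2 fold of -0.11 ± 0.11, and -0.23 to 0.08 over 5 probe sets.

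Among the 5 genes of membranes and T-tubules, Vldlr aside, 0 of 8 probe sets passed in limma as deposited, with 1 lower at an unadjusted p under 0.05. Bin1, which shapes the T-tubule and is misspliced in the human disease, had signals of 1566, 2099 and 3563 at its brightest probe set in HSALR samples, against 1848, 2164 and 2729 in wild type. Its log2 fold was -0.01 ± 0.12, with a 95% interval of -0.26 to 0.25. Ank1, which in muscle yields a small ankyrin of the sarcoplasmic reticulum, had signals of 1127, 1466 and 1882 at 1419421_at in HSALR samples, against 1580, 1922 and 2103 in wild type. All 10 HSALR samples lay below the wild-type median and 6 lay below every wild-type sample.

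The log2 fold of Ank1 was -0.34 ± 0.11 as deposited (limma adjusted p = 0.0775). Quantile normalization made it -0.41 and centring of each array -0.39, both past the threshold (limma adjusted p = 0.0122 and 0.0321). At its other tested probe set the log2 fold was -0.18 ± 0.09. Ank2, a larger ankyrin that anchors membrane proteins, had log2 folds of 0.19 ± 0.10 and 0.17 ± 0.10, neither past the threshold. Mtmr1, a phosphoinositide phosphatase, had 0.06 ± 0.10 and -0.28 ± 0.17 at its 2 probe sets (diffSplice adjusted p = 0.518).

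The 5 genes of microtubules and the cytoskeleton had 12 tested probe sets, of which 0 passed in limma as deposited (1 lower at an unadjusted p under 0.05), with a median log2 fold of -0.05. Clasp1 and Clasp2, which stabilise the plus ends of microtubules, had log2 folds of 0.02 ± 0.09 and -0.08 ± 0.09 at their brightest probe sets. Mapt, the microtubule protein tau, whose exon choice shifts in the brain in myotonic dystrophy, had -0.02 ± 0.10 and -0.16 to 0.02 over 4 probe sets. Arhgef7 had -0.21 ± 0.14.

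Slain2, which promotes microtubule growth, had signals of 2130, 2320 and 3094 at 1452286_at in HSALR samples, against 2441, 3009 and 3204 in wild type, and 6 of 10 HSALR samples lay below every wild-type sample. As deposited the log2 fold was -0.23 ± 0.09 (limma adjusted p = 0.153), and -0.30 after quantile normalization (limma adjusted p = 0.0122). Its other probe set, 1427024_at, had 0.13 ± 0.14. Within each sample the second minus the first was higher by 0.37 in HSALR muscle (exact permutation p = 0.0131, unadjusted), which missed the threshold over all pairs (limma adjusted p = 0.0816).

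The 8 probe sets of the genes for transcription and RNA binding included 0 that passed in limma as deposited, and 0 at an unadjusted p under 0.05. Nfix, a transcription factor that drives the fetal muscle programme, had a log2 fold of 0.04 ± 0.10 at its brightest probe set. At 1423493_a_at the signal was 1219, 1926 and 2758 in HSALR samples, against 1813, 2174 and 2756 in wild type, and 4 of 10 HSALR samples lay below every wild-type sample. The log2 fold there was -0.23 ± 0.14 (limma adjusted p = 0.38), and -0.29 after quantile normalization, which passed (limma adjusted p = 0.0406). Within each sample, 1423493_a_at minus the mean of the other 3 probe sets of Nfix was lower by 0.24 in HSALR muscle, with an SE of 0.07 (limma adjusted p = 0.0464 over 12571 such differences). By this measure 5 of 72 member probe sets were called, from Ldb3, Nfix, Ppp2r5c and Vldlr, against a background of 8.18%. Fxr1, an RNA-binding protein of the fragile X family with a muscle isoform, had log2 folds of -0.05 to 0.10 at 4 probe sets.

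Among the 6 genes of kinase, phosphatase and other signalling, Ppp2r5c aside, 0 of 11 probe sets passed in limma as deposited or after quantile normalization, and 0 had an unadjusted p under 0.05 as deposited. Rapgef1, an exchange factor for the GTPase Rap1, had 0.23 ± 0.12 on the log2 scale (limma adjusted p = 0.274) and passed with array weights (0.34, limma adjusted p = 0.0357). Spag9, a scaffold of JNK signalling, had 0.002 ± 0.10 and 0.14 ± 0.18. Map3k4, a kinase upstream of p38 and JNK, had -0.16 to -0.07 at 4 probe sets. Ndrg3 had -0.01 at both of its probe sets, and Lrrfip2 had 0.07 ± 0.11 and -0.08 ± 0.10. Of the genes of vesicle transport, Vps39, a subunit of the endosomal HOPS tethering complex, had -0.06 ± 0.12 and -0.35 ± 0.21, and Copz2, a coat subunit of Golgi vesicles, had 0.12 ± 0.14, with 0 of 3 probe sets past the threshold in limma and 0 at an unadjusted p under 0.05.

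Other genes known to be misspliced in myotonic dystrophy were read from a list of 40 genes that holds none of the members. The list, like that of the splicing regulators below, was chosen with earlier results of these data known. A share set beside the background is thus a description only. Of the list's 95 tested probe sets, from 38 genes, 6 rose and 2 fell as deposited, with a median log2 fold of -0.02. This is 8.42% against a background of 5.06%. Among them Camk2d, a calcium/calmodulin-dependent kinase, rose at 2 of 4 probe sets (0.84 ± 0.13 and 0.75 ± 0.12). Its other probe sets, at 0.46 ± 0.14 and 0.39 ± 0.12, fell just short (limma adjusted p = 0.0533 and 0.0515). All 4 passed as higher after quantile normalization. Camk2g, of the same family as Camk2d, fell at 1 probe set (-0.71 ± 0.12). Its brighter probe set was not called (-0.20 ± 0.11, limma adjusted p = 0.328). Trdn, the triad protein triadin, rose at 1 of 6 probe sets (1.08 ± 0.13, against -0.24 to 0.38 at the others). As deposited it was the only 1 of the list's 25 genes with several probe sets that diffSplice called (adjusted p = 1.37e-07). This is 4%, against a background of 1.88% of genes. After quantile normalization diffSplice called 7 of the 25, against a background of 7.63%. Cacng1, a calcium channel subunit, also rose (0.60 ± 0.10). After quantile normalization 27 of the 95 probe sets passed, 10 higher and 17 lower (28.4%). The background in this scaling was 14.8%, 6.47% higher and 8.37% lower. Without HSALR replicates 9 and 10 there were 5, against a background of 3.68%.

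Of 16 genes for splicing regulators, 49 probe sets were tested, of which 0 rose and 3 fell as deposited (6.12%, against the background of 5.06%). After quantile normalization 3 rose and 8 fell (22.4%, against 14.8%). All 3 called as deposited belonged to Rbfox1, which binds beside regulated exons in muscle, with log2 folds of -0.56 ± 0.12, -0.44 ± 0.09 and -0.37 ± 0.10. As deposited Celf1 was the only 1 of 13 genes of this list that diffSplice called (adjusted p = 0.00464). This is 7.69%, against a background of 1.88% of genes. The 4 probe sets of Celf1 had log2 folds of -0.31 to 0.38. After quantile normalization Srsf1 was called as well, with a background of 7.63%.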

How the data were processed

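RNA of 10 HSALR and 9 wild-type EDL samples was labelled with biotin and hybridised to 1-colour arrays, 1 for each, as the labels' protocols say. Intensities of 45101 probe sets were deposited on a linear scale. The submitters' processing notes name GCOS 1.4, with its algorithm, scaling and filters not given in the sources used here. Array medians ranged from 39.7 to 71.9, and the scaling was kept as deposited. Values were used as log2(value + 16). Without the 64 control probe sets, those at or above the median of the mean log2 value were tested. Symbols came from the platform annotation, updated through Entrez identifiers (34945 probe sets with 1 symbol, 932 with several, 9160 unnamed here).

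Groups were compared in limma 3.58.1 under R 4.3.3 (lmFit and eBayes, 2-sided, Benjamini-Hochberg over all tested probe sets, threshold 0.05), and probe sets of 1 gene by diffSplice (F test). Exact permutation tests enumerated all 92378 splits. Both fits were tested on simulated data. Full values are given for probe sets or genes called as deposited or after quantile normalization, and for other members the fold of the brightest probe set or the range; Pdlim3 and Bin1 were given in full after their values were seen. Genes of other lists are named where called, up to 4 a list. Replicate numbers were not taken to pair samples. The members and lists were chosen with earlier results of these data known. Plots used matplotlib 3.10.9 and Python 3.11.15, and promoter sequences are RefSeq's.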

Additional observations from a re-analysis of the deposited data

Results flagged for a closer look

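Of 76 checks, each of 1 probe set in 1 group, 4 had a sample far from the rest of its group. Its gap to the nearest sample, over the range, was above Dixon's critical value. Chance alone gives about 1 in 20 for independent checks, and these checks share samples. Wild-type replicate 1 was highest at Ank2 1434265_s_at (log2 signal 9.65, next 9.47) and at Fxr1 1452247_at (11.75, next 11.53). Wild-type replicate 6 was highest at Vps39 1451720_at (8.94, next 8.50). HSALR replicate 1 was lowest at Ppp2r5c 1434206_s_at (5.75, next 6.70).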

How the results depend on the processing

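The number of member probe sets called (3 as deposited) was 12 after quantile normalization, 7 with arrays centred on their median, 9 without HSALR replicates 9 and 10 after quantile normalization, 5 among the probe sets above the upper quartile of brightness, 5 with trend and robust settings, 8 with array weights and 6 with the 3'/5' ratio of control probe sets as a covariate. It was 2 with the replicate block, and 3 to 5 in fits without 1 sample (5 without HSALR replicate 4 or 5). The share of all tested probe sets called was 5.06% as deposited, 14.8% after quantile normalization and 10.4% with centring. A count that moves with this share is not in itself a result about the members. For the other settings this share is not set beside the counts here, so they are not a result about the members either. The number of member genes called for a difference between probe sets (1) was 0 with a pseudocount of 64, above that quartile, with the replicate block, without HSALR replicates 9 and 10 and by the Simes test. It was 2 without those samples after quantile normalization and 4 by within-sample differences (background 13.3% of genes). By differences to the brightest probe set, an alternative chosen after seeing the data, it was 3, beside 9.37% of all 7789 pairs called. In fits without 1 sample it was 0 to 1. The number of called probe sets of the other misspliced genes (8) was 27 after quantile normalization, 19 with centring, 15 with array weights, 5 without a filter, 5 with the replicate block, 5 without HSALR replicates 9 and 10 and 18 without them after quantile normalization. It was 5 to 11 in fits without 1 sample (5 without wild-type replicate 3, 5 or 7 or HSALR replicate 3). These counts, too, stand beside a share of all probe sets that changes with the setting and is not given here for each. The log2 fold of Ppp2r5c 1434205_at, near 0, changed sign in 5 of 19 fits without 1 sample (-0.065 to 0.030). The call of Vldlr 1435893_at was also lost without a filter (limma adjusted p = 0.0505) and with the replicate block (0.0729). Replicate numbers did not pair samples: deviations of same-numbered samples correlated at -0.24 to 0.13, and 1 wild-type sample correlated best with its own number. The cause of these shifts was not tested. No depth is known for these arrays.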
